A study of Mus musculus and Homo sapiens with 9 samples.

Results

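Small nucleolar RNA host genes (SNHG genes and GAS5) were followed through 9 CUT&Tag peak lists. Members were all genes, of any type, whose symbol is SNHG followed by digits or is GAS5, ignoring case, in the GENCODE annotations M21 (mouse, mm10) and 44 (human, hg38). There were 15 in mouse and 29 in human, 44 of the 118076 genes of both annotations. Each of the 9 libraries was the only one of its group, so no test between groups was possible, no p-value was computed, and differences between lists have no replicate check. All intervals below cover counting error only.

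The 5 mouse lists came from mouse embryonic fibroblasts (MEFs), taken from embryos at E13.5. By the study's methods, MEFs were immortalized with a lentivirus and selected with puromycin. S9.6, an antibody that binds RNA-DNA hybrids, was used in Mcm8+/+ (WT) and Mcm8-/- (KO) MEFs, and in MEFs given an adenovirus with a control shRNA (shControl, whose genotype is labelled control) or an shRNA against Ddx5 (shDdx5). The remaining MEF library was wildtype and received no primary antibody. The other 4 lists were from HEK293, an established human embryonic kidney line, wildtype by label: mouse IgG, anti-FLAG after transfection of a FLAG-MCM8 plasmid, S9.6, and S9.6 after transfection of an RNH1 plasmid (RNase H1 in the study, an enzyme that degrades the RNA of RNA-DNA hybrids). FLAG-MCM8 is an overexpressed protein, and the genes here were not checked for expression, since a peak list measures none; the loss of MCM8 or DDX5 cannot be read from it either. A promoter peak of the fibroblast gene Vim was in all 4 S9.6 MEF lists, 2 of 8 fibroblast marker genes had one in shControl and in shDdx5 and 1 in WT and in KO, and none of the 4 markers of other cell types had one in any MEF list. In HEK293, marker genes with a promoter peak, among 6, numbered 0 in IgG, 1 in FLAG-MCM8 and RNH1 each and 2 in S9.6. None of 3 markers of other types had one. VIM was also among the HEK293 markers and was the marker found in RNH1. Over the S9.6 MEF lists, the share of all protein-coding genes with a promoter peak ran from 11.3% (WT) to 23.1% (shDdx5). Over the HEK293 lists it ran from 5.59% (IgG) to 30.1% (S9.6). The marker counts rest on few genes and lie near these shares, so they do not establish cell identity.

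A snoRNA host gene is transcribed and spliced like any other gene, and its snoRNAs, which guide methylation or pseudouridylation of ribosomal and spliceosomal RNA, are trimmed from its introns. The exons of most SNHG transcripts code for no long protein, and several, GAS5 first among them, are removed by nonsense-mediated decay when translated. Many start at a C followed by a run of pyrimidines, as the genes of ribosomal proteins do, which places their translation and decay under growth control. An R-loop is an RNA-DNA hybrid with a displaced strand of DNA and is common at CpG-rich promoters of highly transcribed genes. MCM8, a helicase, and DDX5, an RNA helicase, are the proteins whose loss or location the study compared.

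At least 1 snoRNA or small Cajal body RNA gene lay on the same strand within each of the 43 members other than human GAS5. Those of human GAS5, a known host, were not analysed here. Mouse Gas5 held 10 small RNA genes and Snhg14 held 208, the most of any mouse member. CpG-rich start sites (a GC content of at least 50% and a CpG observed/expected ratio of at least 0.6 in the 500 bp around the 5′ end) were found in 13 of 15 mouse members and in 23 of 29 human members. Among other lncRNA genes the share was 14.1% of 10141 in mouse and 21.5% of 18837 in human. A TSS of a protein-coding gene lay within 1 kb of a TSS in 6 of 15 mouse and 13 of 29 human members (20% and 22.4% of other lncRNA genes).

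At least 1 annotated TSS beginning with C and followed by at least 4 more C or T bases in a row was found in 7 of 15 mouse members and 16 of 29 human members, against 3.21% and 5.84% of other lncRNA genes. Members had more TSSs per gene (median of 5 against 1 in mouse and 10 against 1 in human), and per TSS the share was 9.26% against 2.3% in mouse and 6.05% against 2.72% in human. The sequences below show, for 6 members, the TSS with the largest number of annotated transcripts, or the one nearest the 5′ end where TSSs tied (Snhg8 and Snhg12), 10 bases before it and 20 from it on, read in the direction of the gene, with the pyrimidine run in capitals. The first 4 genes carried a promoter peak in at least 1 list and the last 2 carried none in any list, which is why they are set together. A run at this TSS is not typical of the members. The TSS so defined did not start with C in Snhg10, Snhg17, Snhg18, SNHG5, SNHG10 and SNHG31, which had promoter peaks. Nor did it in Snhg3 and Snhg11, which had none.
Gas5 (mm10, chr1:161035156-161035185, + strand): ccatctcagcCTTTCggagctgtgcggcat
Snhg8 (mm10, chr3:123508385-123508414, - strand): aaagccccgcCCCTCgcgcgcaggctcttg
GAS5 (hg38, chr1:173867970-173867999, - strand): accatactgtCTTTTCgaggtaggagtcga
SNHG29 (hg38, chr17:16439027-16439056, + strand): aaggtgtgacCTTTTCattcccgttgttat
Snhg12 (mm10, chr4:132308666-132308695, + strand): cgttctcagtCCTTTCTCgcttcatccgcg
SNHG12 (hg38, chr1:28581854-28581883, - strand): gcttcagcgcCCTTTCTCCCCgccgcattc

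This run was less frequent in members with a promoter peak than in those without one, in both organisms. It was present in 2 of 7 mouse members with a peak in any S9.6 list and in 5 of 8 without, and in 7 of 16 human members with a peak in any list and 9 of 13 without. The run was counted at any annotated TSS, and the number of TSSs differed. Its median was 3 in mouse members with a peak and 6.5 without, and 12.5 and 8 in human. The counts of the run were not corrected for this. The CpG-rich start was present in 7 of 7 mouse members with a peak and 6 of 8 without, and in 14 of 16 and 9 of 13 human members. A neighbouring protein-coding TSS was present in 4 of 7 and 2 of 8 mouse members and in 7 of 16 and 6 of 13 human members. Genes sharing a promoter count separately, so none of these counts has a test.

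A promoter peak was counted when its midpoint lay within 1 kb of any annotated TSS of the gene. In S9.6 MEF lists, 2 of 15 members had one in WT (Gas5 and Snhg18), 6 of 15 in KO (Gas5, Snhg8, Snhg9, Snhg10, Snhg17 and Snhg18), 5 of 15 in shControl (Gas5, Snhg8, Snhg10, Snhg15 and Snhg18) and 4 of 15 in shDdx5 (Gas5, Snhg8, Snhg10 and Snhg17). Without antibody, 0 of 15 had one. The same count over other lncRNA genes gave 3.32% (WT), 4.98% (KO), 4.52% (shControl), 6.84% (shDdx5) and 0.71% (no antibody). As a percentage with its 95% Wilson interval, the members gave 13.3% (3.74 to 37.9) in WT and 40% (19.8 to 64.3) in KO, then 33.3% (15.2 to 58.3) in shControl and 26.7% (10.9 to 52.0) in shDdx5, and 0 of 15 without antibody has an upper bound of 20.4%. The no-antibody library was far shallower, at 719.8 fragments per Mb as recovered from the peaks, against 5729 to 7001 in the S9.6 libraries.

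In HEK293 lists, a promoter peak was found at 4 of 29 members in FLAG-MCM8 (GAS5, SNHG14, SNHG21 and SNHG27), at 10 of 29 in S9.6 and as many in RNH1, and at 0 of 29 in IgG. Other lncRNA genes gave 4.17% (FLAG-MCM8), 9.72% (S9.6), 7.67% (RNH1) and 2.31% (IgG). The members' share was 13.8% (5.50 to 30.6) in FLAG-MCM8 and 34.5% (19.9 to 52.7) in both S9.6 and RNH1, and the upper bound in IgG was 11.7%. Depth in HEK293 ran from 8314 to 11050 fragments per Mb and IgG, at 10923, lay within that range. MEF and HEK293 lists were called at different thresholds (a p of up to 0.001 and up to 1e-05 by their values) and are not compared.

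The members' share lay nearer to that of other lncRNA genes with a CpG-rich TSS. Among members with a CpG-rich TSS, 2 of 13 had a promoter peak in WT (15.4%) against 15.1% of such lncRNA genes, and 4 of 13 in shDdx5 (30.8%) against 31.7%. The members lay higher in KO, at 6 of 13 (46.2%) against 21.5%, and in shControl, at 5 of 13 (38.5%) against 19.6%. In HEK293 the shares were 3 of 23 in FLAG-MCM8 (13%) against 11.2%, 9 of 23 in S9.6 (39.1%) against 30.7% and 10 of 23 in RNH1 (43.5%) against 23.9%. Other genes of any type with a snoRNA inside, 340 in mouse and 354 in human, gave 15.3% (WT), 16.5% (KO), 18.5% (shControl) and 30.3% (shDdx5), and in HEK293 15.8% (FLAG-MCM8), 37% (S9.6) and 32.2% (RNH1). The 95% Wilson interval for these 13 or 23 members covered the share of CpG-rich lncRNA genes in each list except KO and RNH1. It ran from 23.2% to 70.9% in KO and from 25.6% to 63.2% in RNH1. This is not a test, since the interval treats genes of the same library as independent. It establishes no excess in KO or RNH1. In KO the lower bound lay close to the 21.5% of CpG-rich lncRNA genes, and 3 of the 6 promoter peaks had a q below 0.05.

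**Figure D1:**
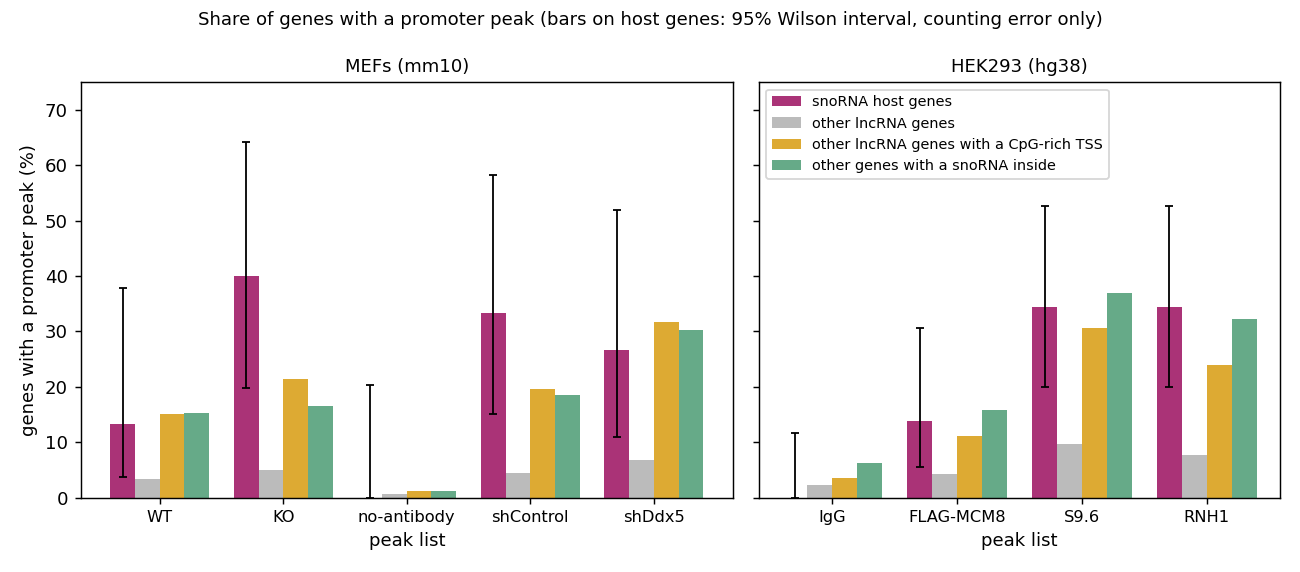
Percentage of genes with a promoter peak (vertical axis) in each peak list (horizontal axis), for the 15 mouse or 29 human snoRNA host genes, other lncRNA genes, other lncRNA genes with a CpG-rich TSS, and other genes with a snoRNA inside. Error bars on the host genes are 95% Wilson intervals; the host genes stand above other lncRNA genes in every S9.6 list and near the CpG-rich lncRNA genes in WT, shDdx5, FLAG-MCM8 and S9.6.

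Members with and without a protein-coding neighbour were also counted apart. In mouse, the 9 members with no protein-coding TSS within 1 kb gave 0 with a promoter peak in WT and 2 each in KO, shControl and shDdx5, where other such lncRNA genes gave 1.1%, 1.97%, 1.8% and 2.05%. The 6 with such a neighbour gave 2, 4, 3 and 2 (12.2%, 17%, 15.4% and 26% of other lncRNA genes with one). In human, the 16 members without a neighbour gave 3 with one in FLAG-MCM8, 3 with one in S9.6 and 6 in RNH1 (2.42%, 4.35% and 3.31% of other such lncRNA genes), and the 13 with one gave 1, 7 and 4 (10.2%, 28.3% and 22.7%). A promoter shared by 2 genes gives peaks that these lists cannot assign to either, and the lists carry no strand.

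Gas5, the growth arrest-specific host of box C/D snoRNAs, lies at mm10 chr1:161034422-161038539 on the + strand, head to head with Zbtb37, a zinc finger gene. It was the only member with a promoter peak in all 4 S9.6 MEF lists, and had no peak without antibody. Its peak had a fold over the local background of 3.48 in WT and 4.57 in KO, then 3.91 in shControl and 5.18 in shDdx5, with respectively 14, 18, 12 and 21 fragments at the summit. All 4 peaks overlapped one another, and their midpoints lay from 133 bp before to 13 bp after the nearest Gas5 TSS. The nearest TSS of any gene was one of Gas5 in WT and KO and one of Zbtb37, at 9 and 20 bp, in shControl and shDdx5. By p, the peak ranked 1860 of 6481 peaks in WT, 513 of 9605 in KO, 1910 of 12259 in shControl, and 553 of 11768 in the shDdx5 list. The fold is the authors' value and moves with depth, so the values stand side by side and no direction is read from them.

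Human GAS5 (hg38, chr1:173858559-173868882, - strand) held the strongest promoter peak of any member. Its fold was 9.65 in S9.6, 7.63 in RNH1 and 6.73 in FLAG-MCM8, with 100, 76 and 23 fragments at the summit over a local background of 9.46, 9.09 and 2.57, and there was no peak in IgG. It ranked 31 of 15147 by p in S9.6, 82 of 12497 in RNH1 and 375 of 13295 in FLAG-MCM8. It was the only member with a promoter peak in all 3 lists, and the only one of the 4 FLAG-MCM8 members that also had one in S9.6. The summits in S9.6 and RNH1 fell on the same base and the FLAG-MCM8 summit 3 bp away, before the main cluster of GAS5 TSSs (301 bp in S9.6 and RNH1, 298 bp in FLAG-MCM8). The nearest TSS of the peak midpoint was one of ZBTB37, at 68, 3 and 19 bp in S9.6, RNH1 and FLAG-MCM8.

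The 30 bases around these summits are shown because 3 libraries, from antibodies to a tagged protein and to hybrids, reached nearly the same base. They are read on the + strand, with each CG in capitals, and the summit is the base after the first 15. Those of SNHG31, the only other member whose S9.6 and RNH1 summits fell on the same base, follow.
GAS5, FLAG-MCM8 summit (hg38, chr1:173868278-173868307): gggaagggggggCGgtgtaaggctgagtga
GAS5, S9.6 and RNH1 summit (hg38, chr1:173868281-173868310): aagggggggCGgtgtaaggctgagtgattt
SNHG31, S9.6 and RNH1 summit (hg38, chr2:214809854-214809883): tccCGgCGtgtgggacttaggggaggggcc
The + strand of the GAS5 stretch in FLAG-MCM8 held 18 G and 2 C in 30 bases, and that of SNHG31 15 G and 7 C. On the - strand, along which GAS5 is transcribed, the GAS5 stretch is therefore rich in C, and on the + strand, that of ZBTB37, rich in G.

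**Figure D2:**
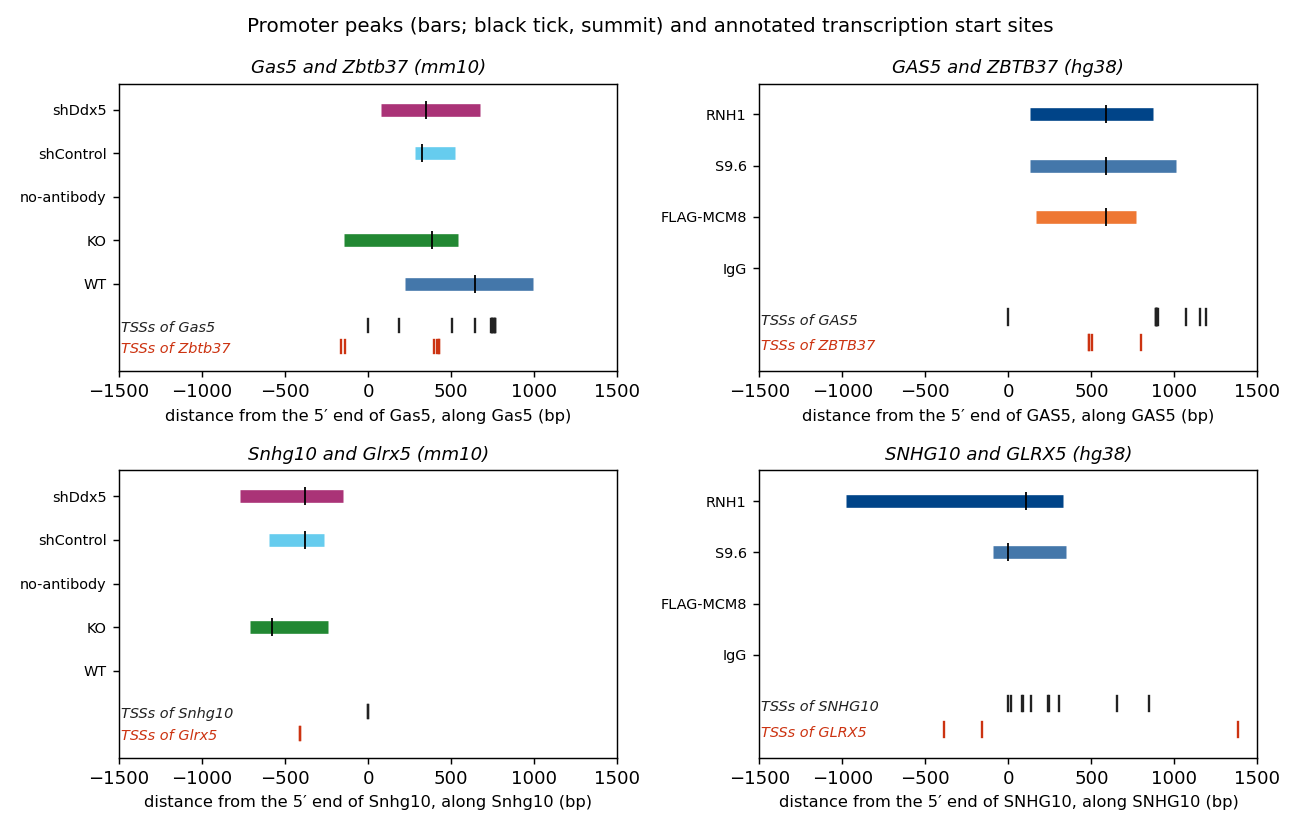
Promoter peaks (bars, with the summit as a black tick) by list, against the distance in bp from the 5′ end of Gas5, GAS5, Snhg10 or SNHG10 along that gene; short ticks below mark annotated TSSs of the host gene (black) and its protein-coding neighbour (red). The GAS5 summits of FLAG-MCM8, S9.6 and RNH1 stand within 3 bp of each other, and no list without a bar had a promoter peak.

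Snhg1, host of a series of box C/D snoRNAs, differed from Gas5 in the absence of peaks. Mouse Snhg1 (mm10, chr19:8723475-8726443, + strand), with 8 small RNA genes inside, had no peak at its promoter or over its body in any of the 5 MEF lists. Human SNHG1 (hg38, chr11:62851978-62855953, - strand) had no peak in IgG, FLAG-MCM8 or RNH1 and 1 promoter peak in S9.6, with a fold of 3.80, 24 fragments and rank 7271 of 15147. That peak lay outside the gene, 171 bp before its 5′ TSS, and its midpoint was 13 bp from a TSS of SLC3A2, the heavy chain of amino acid transporters, on the other strand.

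Snhg8, Snhg10 and Snhg18 had a promoter peak in 3 of the 4 S9.6 MEF lists. Snhg8, host of the box H/ACA snoRNA Snora24, had folds of 3.06 in KO, 3.44 in shControl and 3.27 in shDdx5, with 8 or 9 fragments at the summit, and none in WT. Its own TSS was the nearest, at 19 to 31 bp, and no protein-coding TSS was near. These 3 peaks were weak: their q did not reach 0.05 in any list, and they ranked 8279 of 9605, 6759 of 12259 and 8250 of 11768.

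Snhg10, host of Scarna13, had folds of 3.47 in KO, 3.85 in shControl and 5.05 in shDdx5, with 10, 13 and 18 fragments, and no peak in WT. All 3 peaks lay outside Snhg10, with midpoints 432 to 476 bp before its TSS and 21 to 65 bp from the TSS of Glrx5, a mitochondrial glutaredoxin of iron-sulfur cluster assembly. Snhg18, host of Snord123, had folds of 4.55 in WT, 3.19 in KO and 3.85 in shControl, with 16, 9 and 10 fragments, and no promoter peak in shDdx5. Its neighbour Sema5a, a semaphorin, held the nearest TSS in KO and shControl, at 28 and 63 bp, and Snhg18 itself in WT, at 44 bp.

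**Figure D3:**
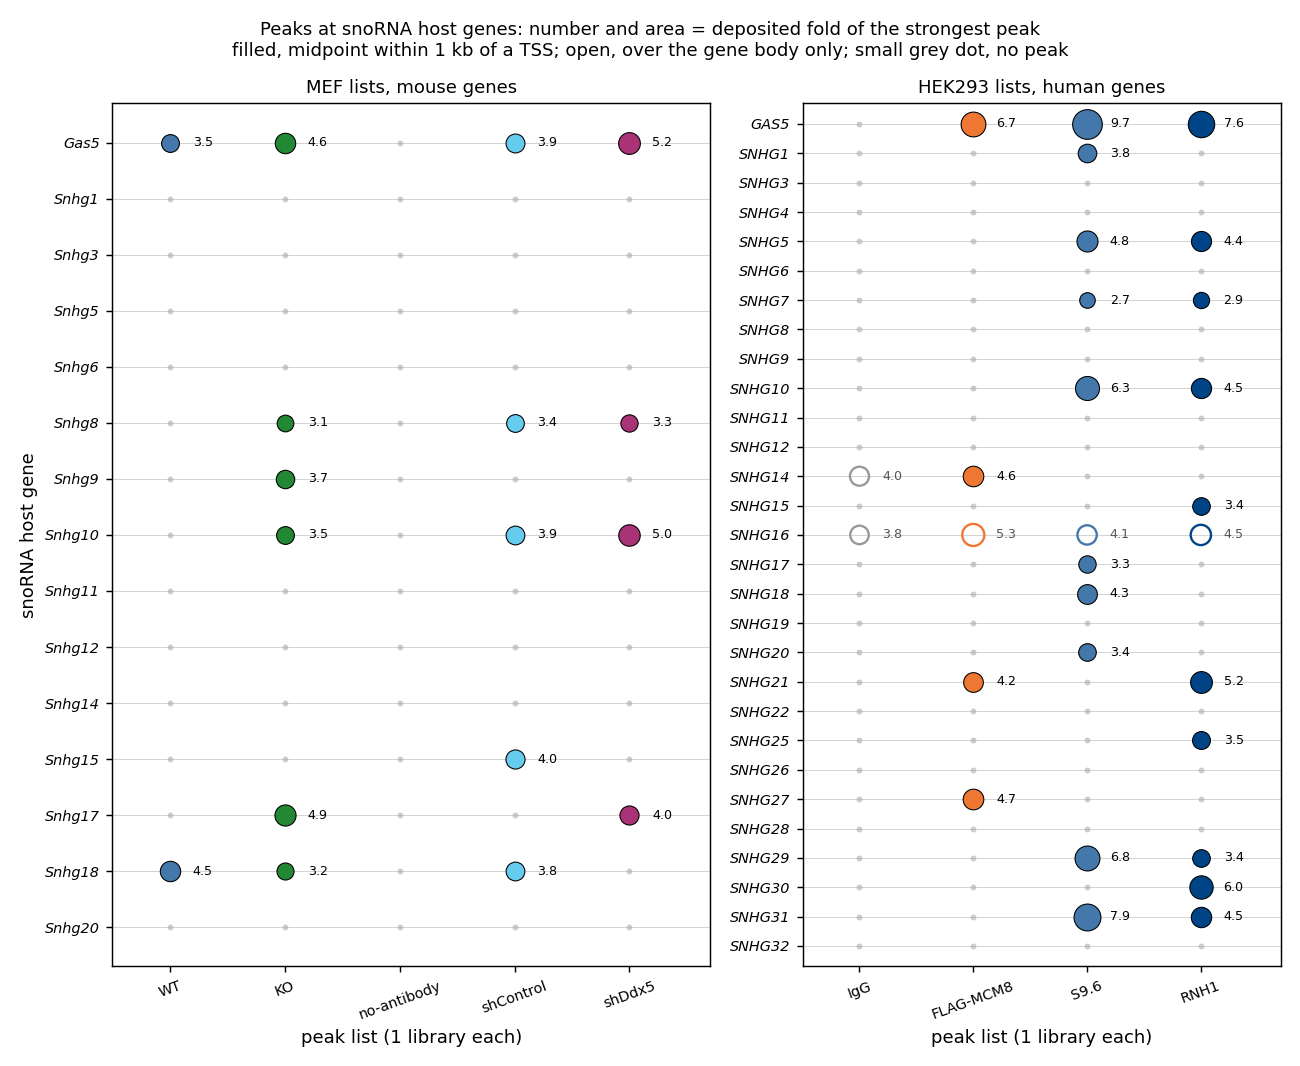
Members (rows) by peak list (columns): filled circles are promoter peaks, open circles are peaks over the gene body only, small grey dots mark no peak, and circle area and the number beside it give the deposited fold of the strongest peak. The no-antibody and IgG columns hold no promoter peak, Gas5 is filled in all 4 S9.6 MEF lists, and GAS5 is filled in FLAG-MCM8, S9.6 and RNH1.

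The comparison of KO with WT addresses where hybrids are detected when MCM8 is absent. Both lists shared Gas5 and Snhg18, KO alone held Snhg8, Snhg9, Snhg10 and Snhg17, and WT alone held 0. Among other lncRNA genes, 3.07% had a promoter peak in KO only, 1.41% in WT only and 1.91% in both. Those with a CpG-rich TSS, which most members have, had a promoter peak more often, in 21.5% in KO and 15.1% in WT. The whole KO list was also longer, with 9605 peaks against 6481, at a depth of 5729 against 6490 fragments per Mb. Snhg17, host of H/ACA snoRNAs, had a KO fold of 4.89 with 13 fragments and rank 783 of 9605, at its own TSS. Snhg9, host of Snora78, had a fold of 3.73 with 15 fragments and overlapped Snora78, beside Rps2, a ribosomal protein gene of the small subunit. Of the KO peaks, 3 of 6 (Gas5, Snhg9 and Snhg17) had a q below 0.05, as did 2 of 2 WT peaks, so the excess in KO was 1 member at that q. With peaks of a fold of at least 4, and with the same number of strongest peaks taken from each list, the difference was 1 member, and at a q of 1e-05 it was 0.

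The comparison of shDdx5 with shControl addresses where hybrids are detected after knockdown of DDX5 by an shRNA, which is not its absence. Both lists held Gas5, Snhg8 and Snhg10, shDdx5 alone held Snhg17, and shControl alone held Snhg15 and Snhg18, a difference of -1 member (shDdx5 less shControl). Other lncRNA genes had a promoter peak in shDdx5 only in 4.24%, in shControl only in 1.91% and in both in 2.6%. Those with a CpG-rich TSS had one in 31.7% in shDdx5 and 19.6% in shControl. Snhg17 had a fold of 3.997 with 13 fragments in shDdx5, and Snhg15, host of Snora9, a fold of 4.003 with 9 fragments in shControl. A q below 0.05 was held by 4 of 5 peaks in shControl and 3 of 4 in shDdx5, in lists where 28.1% and 60.5% of all peaks had it. With a stricter limit the direction turned: at a q of 1e-05 the difference was 2, with Gas5 and Snhg10 in shDdx5 and none in shControl. For peaks with folds of 4 or more it was 1.

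In HEK293, S9.6 and RNH1 shared 6 members: GAS5, SNHG5, SNHG7, SNHG10, SNHG29 and SNHG31. S9.6 alone held SNHG1, SNHG17, SNHG18 and SNHG20, and RNH1 alone held SNHG15, SNHG21, SNHG25 and SNHG30. Of other lncRNA genes, 4.72% had a promoter peak in S9.6 only, 2.66% in RNH1 only and 5% in both. Those with a CpG-rich TSS had one in 30.7% in S9.6 and 23.9% in RNH1. For the shared members, the folds in S9.6 and RNH1 were 9.65 and 7.63 at GAS5, 6.33 and 4.46 at SNHG10, 6.79 and 3.40 at SNHG29, 7.93 and 4.53 at SNHG31, and 4.84 and 4.41 at SNHG5. SNHG7 had 2 promoter peaks of 2.47 and 2.65 in S9.6 and 1 of 2.89 in RNH1. These folds stand side by side, since they move with depth and background. Depth was 10395 in S9.6 and 11050 fragments per Mb in RNH1, and whether the transfected enzyme removed hybrids was not tested, since no list measures it apart from these peaks.

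Of the shared members, SNHG10, host of SCARNA13, had 38 fragments at its S9.6 summit, 3 bp before a SNHG10 TSS, beside GLRX5. SNHG29, host of 3 box C/D snoRNAs on chromosome 17, had 44 fragments in S9.6 and 26 in RNH1, at its own TSS in both. SNHG31, on chromosome 2 beside BARD1, the partner of BRCA1 in DNA repair, had 40 and 16. Among those in RNH1 alone, SNHG30 was the strongest, with a fold of 5.96, 23 fragments and rank 1749 of 12497. SNHG20, in S9.6 alone, had the weakest rank there, 15035 of 15147.

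**Figure D4:**
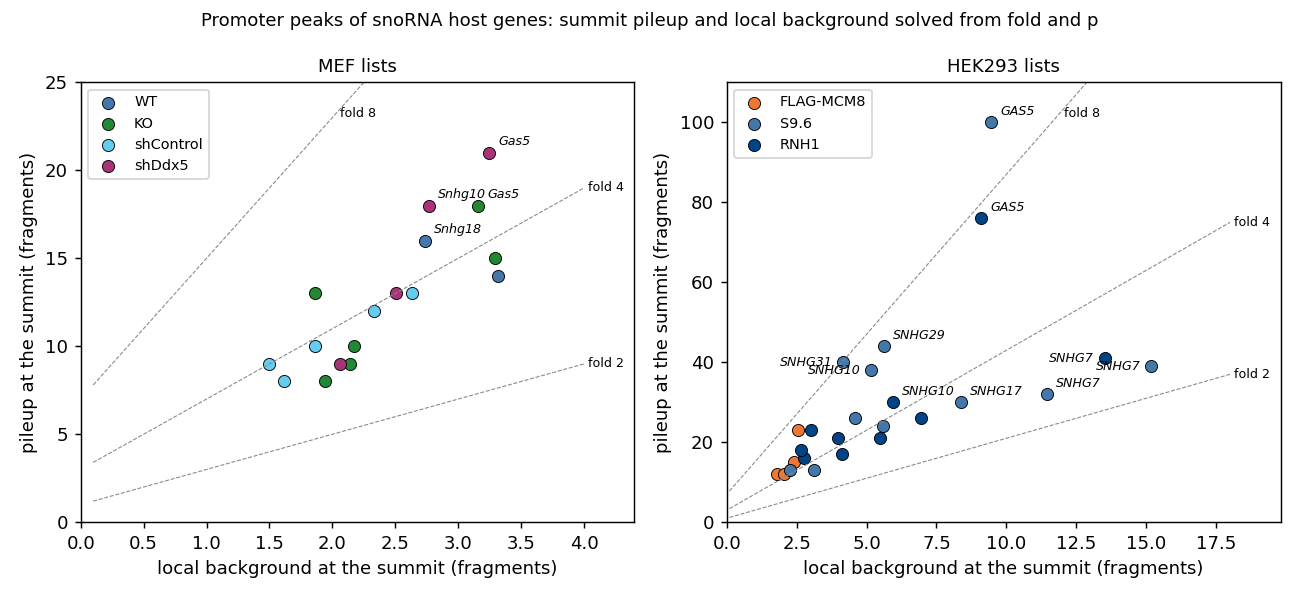
Fragments at the summit (vertical axis) against the local background in fragments (horizontal axis), both solved from the deposited fold and p, for each promoter peak of a host gene, coloured by list; dashed lines mark a fold of 2, 4 and 8. GAS5 in S9.6 and RNH1, with 100 and 76 fragments, stands above all other members, while MEF peaks held 8 to 21 fragments.

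FLAG-MCM8 shared GAS5 alone with S9.6, while 3 members were in FLAG-MCM8 only and 9 in S9.6 only, a difference of -6 members (FLAG-MCM8 less S9.6). Of other lncRNA genes, 1.9% had a promoter peak in FLAG-MCM8 only and 7.45% in S9.6 only. Those with a CpG-rich TSS had one in 11.2% in FLAG-MCM8 and 30.7% in S9.6. The difference in members was -2 for peaks with folds of 4 or more, and 0 without members that have a protein-coding TSS within 1 kb. Of the 786 other lncRNA genes with a FLAG-MCM8 promoter peak, 428 had one in S9.6 too. SNHG27 had a fold of 4.67 and SNHG21 one of 4.24, with 15 and 12 fragments. The SNHG27 peak lay at an internal TSS and not at the 5′ end of the gene. With the 5′ TSS alone, FLAG-MCM8 held 2 members. SNHG14, the long transcript over the imprinted SNORD116 and SNORD115 clusters (441754 bp, 111 TSSs and 84 small RNA genes inside), had a fold of 4.62 at an internal TSS among the SNORD115 copies and a second FLAG-MCM8 peak of 5.33, over SNORD115-12. The SNORD115 genes are near-identical copies, and how reads that fit several of them were placed is not given in the sources used here.

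Over the gene body, a peak was found at 2 of 15 members of the WT list (5.79% of other lncRNA genes), 5 of KO (8.16%), 4 of shControl (9.56%), 3 of shDdx5 (10.5%) and 0 without antibody (3.26%). In HEK293 it was found at 5 of 29 in FLAG-MCM8 (10.7%), 8 in S9.6 (12.7%), 11 in RNH1 (10.4%) and 2 in IgG (12.3%). Both IgG members were long genes. SNHG14 had an IgG peak of fold 3.97 near SNORD115-32, and SNHG16, host of SNORD1A, SNORD1B and SNORD1C and annotated over 113259 bp, one of 3.77 in an intron, 476 bp from a TSS of ST6GALNAC1.

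Peaks over a member at over 1 kb from each of its TSSs were counted as well. In MEFs the count was 0 of 15 in WT (3.55% of other lncRNA genes), in shControl (6.68%), in shDdx5 (5.59%) and without antibody (2.86%), and 1 of 15 in KO (4.84%). In HEK293 it was 3 of 29 in S9.6 (6.46%) and 2 of 29 in FLAG-MCM8 (8.29%), in RNH1 (5.39%) and in IgG (11.1%). The KO peak lay over Snord123 inside Snhg18, with a fold of 4.09 and 11 fragments, and overlapped no peak of another list. SNHG16 had such a peak in all 4 HEK293 lists and no promoter peak in any: 1 each in IgG and S9.6, 2 in FLAG-MCM8 and 4 in RNH1. The S9.6 peak and the overlapping one of RNH1 lay 178 and 62 bp from a TSS of ST6GALNAC2, a sialyltransferase gene inside the annotated span. SNHG29 had 3 such peaks in S9.6, all in introns, with folds of 3.68, 4.88 and 5.45. The other members with such a peak were SNHG5 in S9.6, SNHG7 in RNH1 and SNHG14 in IgG and FLAG-MCM8.

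Of the 17 mouse and 25 human promoter peaks, none overlapped a peak of the control list of its cell type. Such overlaps were few among all peaks: 80 of 6481 in WT, 110 of 9605 in KO, 102 of 12259 in shControl and 125 of 11768 in shDdx5. In HEK293 they numbered 666 of 13295 in FLAG-MCM8, 831 of 15147 in S9.6 and 828 of 12497 in RNH1. The lack of overlap is therefore not particular to the members. The folds of the members' promoter peaks ran from 3.06 to 5.18 in mouse (median of 3.85) and from 2.47 to 9.65 in human (median of 4.46). The nearest TSS of any gene belonged to the member in 9 of the 17 mouse peaks and 16 of the 25 human peaks. Midpoints lay upstream of the member's nearest TSS in 10 of 17 and 17 of 25. A small RNA gene was overlapped by 3 of the 18 mouse peaks and 1 of the 40 human peaks over or beside a member.

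By symbol, 15 members are present in both organisms. Of these, 7 had a promoter peak in at least 1 S9.6 MEF list and 7 had one in S9.6 of HEK293. GAS5, SNHG10, SNHG17 and SNHG18 were the 4 found in both, and such small counts establish no excess of shared genes. SNHG15 had a promoter peak in shControl MEFs and in RNH1 of HEK293. SNHG3, SNHG6, SNHG11 and SNHG12 had none in any list of either organism. Snhg8 and Snhg9 had one in MEFs alone, and SNHG1, SNHG5, SNHG14 and SNHG20 in HEK293 alone, at the different thresholds given above. In each gene with peaks in both organisms whose neighbour is protein-coding, the neighbour was the same: ZBTB37 for GAS5, GLRX5 for SNHG10 and SEMA5A for SNHG18. This is not particular to them. SNHG1 (SLC3A2), SNHG3 (RCC1) and SNHG9 (RPS2), without promoter peaks in both organisms, also had the same neighbour in mouse and human.

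Noncoding hosts with other names and the genes that act on the products of hosts were counted in the same way. Of the 4 hosts Zfas1, Dancr, Epb41l4aos and Rian, a promoter peak was found at Zfas1 and Dancr in WT, at Dancr in KO, at Epb41l4aos in shDdx5 and at none in shControl or without antibody. In HEK293, ZFAS1 and DANCR had one in S9.6 and ZFAS1 in RNH1, of ZFAS1, DANCR, EPB41L4A-AS1 and MEG8. None of these had one in FLAG-MCM8 or IgG. For other lncRNA genes the share was 3.32% (WT), 4.98% (KO), 4.52% (shControl), 6.84% (shDdx5) and 0.71% (no antibody). In HEK293 it was 9.72% (S9.6), 7.67% (RNH1), 4.17% (FLAG-MCM8) and 2.31% (IgG). Genes with a snoRNA inside, members left out, gave 15.3% (WT), 16.5% (KO), 18.5% (shControl), 30.3% (shDdx5), 37% (S9.6) and 32.2% (RNH1). Among 14 genes of snoRNP proteins and assembly factors, the count was 0 in WT, in KO and without antibody, 2 in shControl (Dkc1, a pseudouridine synthase, and Ruvbl2, an assembly ATPase) and 4 in shDdx5 (Dkc1, Gar1, Nop56 and Nufip1). In HEK293 it was 1 (SNU13, IgG), 3 (FLAG-MCM8), 5 (S9.6) and 4 (RNH1), with NOLC1, a chaperone of snoRNPs, in the last 3. Protein-coding genes as a whole had a promoter peak in 11.3% (WT), 16% (KO), 14.7% (shControl), 23.1% (shDdx5), 1.24% (no antibody), 5.59% (IgG), 12% (FLAG-MCM8), 30.1% (S9.6) and 24.6% (RNH1) of cases.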

How the data were processed

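CUT&Tag libraries were prepared with a kit based on tagmentation and amplified by PCR. The authors trimmed the reads, aligned MEF reads to mm10 and HEK293 reads to hg38 with bowtie2 2.2.4 and called peaks with MACS2 2.2.7.1 (the submitters' processing notes name Trimmomatic, Bowtie2 and MACS2 2.1.2), 1 list per library. The no-antibody library was not used as input in MEFs. For HEK293 the study names a fold above 2 and a p below 0.05 as its criterion for peaks, but folds went down to 1.79 in S9.6 and 1.72 in RNH1. The use of IgG as input, the MACS2 calling threshold and the handling of duplicates are not given in the sources used here. The authors deposited for each peak a position and summit (given as an offset), a fold enrichment (a ratio over local background), the −log10 of p and of q, and a score, which was not used.

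Each list was taken apart from the others, and a gene had a promoter peak when the midpoint of a peak lay within 1 kb of a TSS, and a body peak with an overlap of at least 1 bp. Other lncRNA genes, counted in the same way, gave the background. Summit pileup and local background were solved from fold and p, and depth as fragments per Mb from the lowest background and the shortest peak, so depths are relative. The recovery of summit pileups and the placing of peaks at promoters and over gene bodies were tested on simulated data with known answers. The depth estimate was not. Wilson intervals are at 95%. Python 3.11.15, pandas 2.3.3, scipy 1.17.1 and pysam 0.24.0 were used, and sequences were read from the genomes mm10 and hg38.

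Named in full were GAS5 and SNHG1 of both organisms, members with a promoter peak in at least 3 of 4 S9.6 MEF lists or in all of FLAG-MCM8, S9.6 and RNH1, and members with a peak in a control list. Members in 1 library only of KO and WT, or of shDdx5 and shControl, were named, and all others counted, or named where a count was 5 or fewer. The single peaks given for other HEK293 members were chosen after their values were seen. The members and lists were chosen with earlier results of these data known. A further gene list is not reported here.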

Additional observations from a re-analysis of the deposited data

Results flagged for a closer look

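The number of members with a promoter peak moved in opposite directions in the 2 MEF contrasts. KO less WT was 4 (6 of 15 against 2 of 15), and shDdx5 less shControl was -1 (4 of 15 against 5 of 15). The difference between these contrasts was not tested, since each group is 1 library. The lists differ in length (9605 against 6481 peaks in KO and WT, 11768 against 12259 in shDdx5 and shControl), and with the same number of strongest peaks from each list KO less WT was 1 and shDdx5 less shControl stayed at -1. The opposite signs were not kept at stricter limits. At a q of 1e-05, KO less WT was 0 and shDdx5 less shControl was 2, and at a fold of at least 4 both were 1. The share of other lncRNA genes was higher in KO than in WT (4.98% against 3.32%) and in shDdx5 than in shControl (6.84% against 4.52%).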

How the results depend on the processing

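No paired analysis was possible because each group is 1 library and the groups share 1 replicate number. Of the counts recomputed, 71 stayed within 1.5 times the reported count and 42 did not; the cause was not tested, except that stricter limits leave fewer peaks. Differences between lists rest on few members and ranged from 0 to 4 for KO less WT, -1 to 2 for shDdx5 less shControl, 1 to 4 for FLAG-MCM8 less IgG, 3 to 10 for S9.6 less IgG, -1 to 3 for RNH1 less S9.6 and -7 to 0 for FLAG-MCM8 less S9.6. At a q of 1e-05 or lower, promoter counts became 0 in WT, KO and shControl, 2 in shDdx5, 1 in FLAG-MCM8 and 6 in RNH1, and body counts 0 in WT, KO and shControl, 1 in shDdx5 and IgG, 3 in FLAG-MCM8 and 7 in RNH1. At a fold of at least 4, promoter counts became 1 in WT and shControl, 2 in KO and shDdx5 and 6 in S9.6 and RNH1, and body counts 1 in WT, shControl and shDdx5, 3 in KO, 0 in IgG and 7 in RNH1. shDdx5 less shControl turned to 2 at that q and to 1 at that fold. With equal numbers of the strongest peaks, KO promoters became 3 and IgG bodies 1. Without members that have a protein-coding TSS within 1 kb, promoter counts became 0 in WT, 2 in KO, shControl and shDdx5, 3 in S9.6 and 6 in RNH1, and S9.6 less IgG became 3. Body counts over 1 kb from every TSS became 0 in WT, shControl and shDdx5, 1 in KO, 2 in FLAG-MCM8 and RNH1 and 3 in S9.6. Within 3 kb, IgG promoters became 1, and with the 5′ TSS alone FLAG-MCM8 promoters became 2. Using the summit, or leaving out peaks that overlap a control peak, moved no count by over 1.5 times. KO less WT stayed above 0 in every setting except at a q of 1e-05, where it was 0. The low depth of the no-antibody library limits its count of 0.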
